A study of Mus musculus with 12 samples.

Results

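The genes described here encode the chaperonins, the barrel-shaped chaperones of the cytosol and of the mitochondrial matrix. Members were taken by gene symbol: the transcript cluster (the array's unit of measurement for 1 transcript locus) whose platform annotation carries the symbol and no other, and the brightest over 12 arrays where several carry it. The rule gave 10 genes among 25341 clusters with a symbol and 41345 clusters in all: *Tcp1*, *Cct2*, *Cct3*, *Cct4*, *Cct5*, *Cct6a*, *Cct7* and *Cct8* for the cytosolic complex, and *Hspd1* and *Hspe1* for the mitochondrial one. *Tcp1* and *Cct6a* each had a dimmer cluster besides.

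RNA from intestinal epithelial cells (IECs) was hybridized to Affymetrix Mouse Gene 2.0 ST arrays, 3 per group. The groups were S-IECs (small intestine, ileum) of Nfat5IEC-KO mice, S-IECs of Nfat5fl/fl mice, L-IECs (colon) of Nfat5IEC-KO mice and L-IECs of Nfat5fl/fl mice. Both genotypes carry floxed *Nfat5* alleles. Nfat5IEC-KO mice also carry the *Vil-Cre* transgene, in which the villin promoter drives Cre recombinase in the intestinal epithelium, and Nfat5fl/fl mice are Cre negative. All mice were 11 weeks old and untreated, the study's methods describe its mice as males on a C57BL/6J background, and cells were released from ileum and colon with EDTA. The labels number the mice of each group but do not say whether a number marks the same mouse in both tissues, so p-values measure the spread between these arrays.

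The cytosolic chaperonin, called CCT or TRiC, consists of stacked rings of different but related subunits, closes over an unfolded protein and uses ATP to fold it. Its best known substrates are actin and tubulin, which cannot reach their native state without it, and WD40-repeat proteins such as the mitotic activator CDC20. HSP60, encoded by *Hspd1*, forms the mitochondrial ring and HSP10, encoded by *Hspe1*, is its lid, and together they fold proteins imported into the matrix. The intestinal epithelium renews itself continually from dividing crypt cells, so protein synthesis and folding run high there.

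*Hspd1* and *Hspe1* lie head to head on mouse chromosome 1 and share the DNA around their starts. *Hspe1* spans chr1:55088148-55091317 on the forward strand and *Hspd1* spans chr1:55077833-55088243 on the reverse strand (GRCm38.p6). The promoter windows used here (RefSeq, GRCm38.p6, 250 bases before to 50 after each start) were present for 9 of the 10 members, and a heat shock element, the inverted repeat of GAA bound by heat shock factor 1, was searched on both strands as GAANNTTCNNGAA. It was found in 198 of 32851 windows (0.603%), and among members in those of *Hspd1* and *Hspe1*, where overlapping matches join into 4 units. Such a run of 4 units occurred in 5 windows (0.0152%), those of *Arpc2*, *Chordc1*, *Fam149a*, *Hspd1* and *Hspe1*. The stretch is shown because windows of both mitochondrial members hold the same copy, at chr1:55088053-55088082 on the forward strand, with the 4 units in capitals. It lies 72 bases before the *Hspe1* start and 127 bases before the *Hspd1* start at chr1:55087932. It also lies inside the longer *Hspd1* span given above.
Hspd1 and Hspe1, heat shock element: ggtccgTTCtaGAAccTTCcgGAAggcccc

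NFAT5, the transcription factor whose gene is targeted in the intestinal epithelium of Nfat5IEC-KO mice, belongs to a family whose DNA elements share the core TGGAAA. This core was searched on both strands and occurred in 21.4% of all windows and in 4 of 12 member windows. By gene it occurred in 23.9% of all genes with a window and in 4 of the 9 members, *Tcp1*, *Cct5*, *Hspd1* and *Hspe1*. *Hspd1* and *Hspe1* again hold one and the same copy. The 3 copies are shown with the core in capitals (TTTCCA where it lies on the opposite strand), each read 5' to 3' along its gene: *Tcp1* at chr17:12916252-12916281 on the forward strand, *Cct5* at chr15:31601893-31601922 on the reverse strand and *Hspe1* at chr1:55088147-55088176 on the forward strand. The *Tcp1* and *Cct5* copies lie upstream of the start, and the *Hspe1* copy just after it.
Tcp1, NFAT core: cctgacttccgtTTTCCActttcgcgcctt
Cct5, NFAT core: cccctcggttcgTGGAAAacggacgttccc
Hspe1, NFAT core: cggcggccggccTGGAAAagcctagaaagt
A match to these letters is a description of the sequence, and these arrays do not measure binding.

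Deposited values ran between 0.742 and 13.8 on the log2 scale, with array medians of 4.48 to 4.57. *Nfat5* itself measured 8.09, 7.84 and 8.01 in S-IECs labelled Nfat5IEC-KO, against 8.03, 8.03 and 8.17 in Nfat5fl/fl S-IECs. These groups overlapped (log2 difference -0.10, SE 0.12, limma adjusted p = 0.763). In L-IECs it measured 6.92, 6.90 and 7.0 in Nfat5IEC-KO, against 7.49, 7.45 and 7.54 in Nfat5fl/fl, with no overlap (log2 difference -0.55, SE 0.09, limma adjusted p = 0.544). The sources used here do not say whether this cluster's probes lie in the deleted part of the gene, so the cluster does not check the S-IEC labels. Absorptive enterocyte markers averaged 10.7 to 10.9 in Nfat5IEC-KO and 10.2 to 10.5 in Nfat5fl/fl S-IEC arrays and at most 6.52 in L-IEC arrays, and colonocyte markers averaged at least 10.3 in L-IEC arrays and at most 8.72 in S-IEC arrays, as the tissue labels state. Of the 6 measured colonocyte markers, 4 were lower in S-IECs than in L-IECs of Nfat5fl/fl mice. The other 2 were higher in S-IECs, *Ceacam20* (0.74, limma adjusted p = 0.000721) and *Mep1a* (0.78, limma adjusted p = 0.000853). Replicate 2 of the Nfat5IEC-KO S-IECs stood nearer to the Nfat5fl/fl arrays than replicates 1 and 3 in most groups of genes below, and values that turn on it are given without it.

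All 10 chaperonin genes were lower in Nfat5IEC-KO than in Nfat5fl/fl S-IECs, by a median of -0.49 on the log2 scale, where the median over all clusters was 0.01. The mitochondrial pair differed most, and the CCT subunits ranged between -0.25 for *Cct7* and -0.63 for *Cct8*. No member passed an adjusted p of 0.05 in limma (range 0.121 to 0.381), and of all clusters 2 did (0.00789%). At an unadjusted p under 0.05, 9 of 10 members were lower, against 8.23% of all clusters, and in 9 of 10 every Nfat5IEC-KO array lay below every Nfat5fl/fl array, against 10.4% of all clusters. With 3 arrays a group, the smallest p an exact permutation test of 1 gene can give is 0.1 (two-sided), which those 9 members reached. In bulk RNA, fewer cells of a type and less RNA per cell cannot be told apart.

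**Figure D1:**
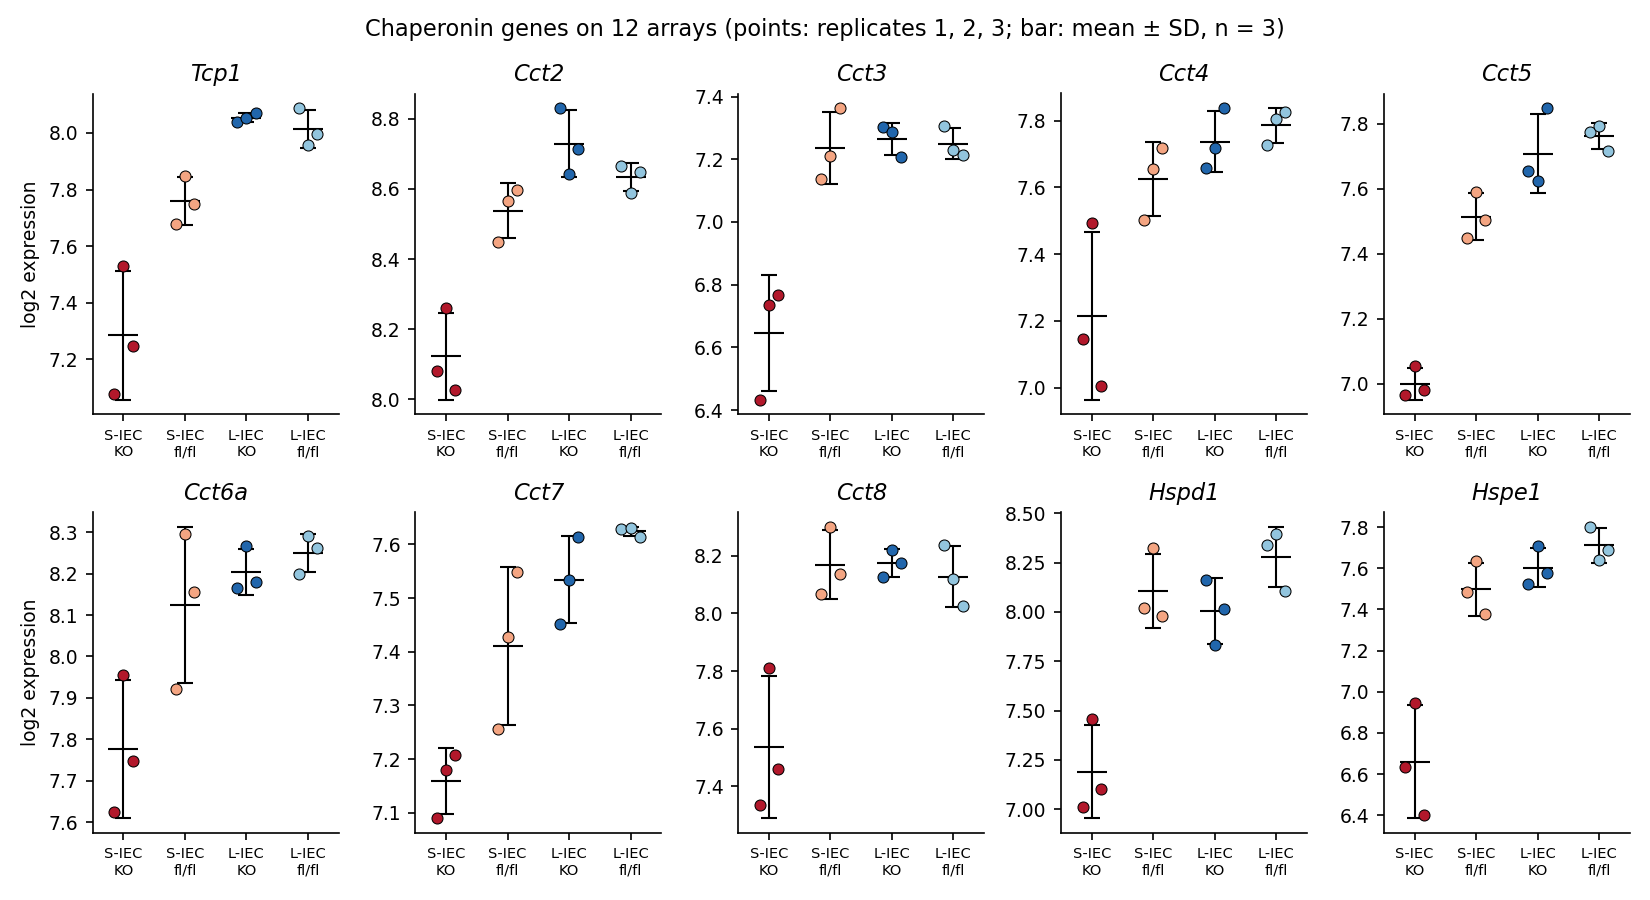
Log2 expression of each chaperonin gene (vertical axis, scaled separately for each gene) on the 12 arrays in 4 groups. Points are single arrays and bars are the mean ± SD (n = 3). In 9 of the 10 panels, all but *Cct6a*, the 3 Nfat5IEC-KO S-IEC points lie below the points of the 3 other groups.

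*Hspd1*, the mitochondrial chaperonin ring subunit, measured 7.01, 7.46 and 7.10 in Nfat5IEC-KO S-IECs, against 8.02, 8.32 and 7.98 in Nfat5fl/fl S-IECs. The highest knockout array lay well below the lowest control array. The log2 difference was -0.92 (SE 0.15, adjusted p = 0.121), a level of 53.0% of that in Nfat5fl/fl. Its means were 7.19 ± 0.24 in Nfat5IEC-KO and 8.11 ± 0.19 in Nfat5fl/fl (SD, n = 3 each).

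*Hspe1*, the lid of that chaperonin, measured 6.63, 6.95 and 6.40 in Nfat5IEC-KO S-IECs, against 7.48, 7.63 and 7.38 in Nfat5fl/fl S-IECs. The groups were again well apart, and replicate 2 was the highest of the knockout arrays, as for *Hspd1*. The log2 difference was -0.84 (SE 0.15, adjusted p = 0.13), a level of 55.9%. *Hspd1* and *Hspe1*, which share the heat shock element printed above, showed the 2 lowest differences among the members. A part of that element in these differences was not tested.

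Among the CCT subunits, *Cct8* measured 7.34, 7.81 and 7.46 in Nfat5IEC-KO S-IECs, against 8.07, 8.30 and 8.14 in Nfat5fl/fl S-IECs. Its log2 difference was -0.63 (SE 0.15, adjusted p = 0.137). *Cct3* measured 6.43, 6.74 and 6.77 in Nfat5IEC-KO, against 7.14, 7.21 and 7.36 in Nfat5fl/fl. For *Cct3* it was replicate 1 that lay apart from the other knockout arrays, and the log2 difference was -0.59 (SE 0.13, adjusted p = 0.136). Both encode subunits on the side of the ring that binds ATP weakly in yeast, as do *Cct6a* and *Cct7*.

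*Cct5*, whose promoter window holds an NFAT core and whose human counterpart is mutated in a hereditary sensory neuropathy, measured 6.96, 7.05 and 6.98 in Nfat5IEC-KO S-IECs, against 7.45, 7.59 and 7.50 in Nfat5fl/fl S-IECs. These were the tightest knockout values of any member (SD 0.05), and the log2 difference was -0.52 (SE 0.11, adjusted p = 0.13). *Tcp1*, the founding subunit of the complex, measured 7.08, 7.53 and 7.25 in Nfat5IEC-KO, against 7.68, 7.85 and 7.75 in Nfat5fl/fl (log2 difference -0.47, SE 0.14, adjusted p = 0.183). Its dimmer cluster, with a mean of 4.72 over 12 arrays, overlapped between genotypes and differed by 0.34 (SE 0.23, adjusted p = 0.558), and the mean over both clusters differed by -0.07. The brighter cluster alone therefore carries the *Tcp1* result.

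*Cct2*, whose human counterpart is mutated in a congenital retinal disease, measured 8.08, 8.26 and 8.03 in Nfat5IEC-KO S-IECs, against 8.45, 8.57 and 8.60 in Nfat5fl/fl S-IECs (log2 difference -0.42, SE 0.12, adjusted p = 0.168). *Cct4* measured 7.15, 7.49 and 7.01 in Nfat5IEC-KO, against 7.50, 7.66 and 7.72 in Nfat5fl/fl (log2 difference -0.41, SE 0.15, adjusted p = 0.257). For *Cct4*, replicate 2 of the knockout all but touched replicate 1 of the control.

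*Cct6a* was the member whose groups overlapped, with 7.63, 7.95 and 7.75 in Nfat5IEC-KO S-IECs, against 7.92, 8.30 and 8.16 in Nfat5fl/fl S-IECs (log2 difference -0.35, SE 0.14, adjusted p = 0.311). Its dimmer cluster differed by -0.57 (SE 0.12, adjusted p = 0.134) with no overlap. *Cct7* differed least, with 7.09, 7.18 and 7.21 in Nfat5IEC-KO, against 7.26, 7.43 and 7.55 in Nfat5fl/fl (log2 difference -0.25, SE 0.12, 95% interval -0.52 to 0.01, adjusted p = 0.381). It was the member that missed the unadjusted threshold.

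The count of members past the adjusted threshold turned on the setting. Without replicate 2 of the Nfat5IEC-KO S-IECs, *Cct8* (adjusted p = 0.0482), *Hspd1* (0.0355) and *Hspe1* (0.0355) passed in limma, with log2 differences of -0.77, -1.05 and -0.98. In that fit 203 of all 25341 clusters passed lower and 23 higher, and 9 of 10 members still passed the unadjusted threshold. Replicate 2 was the least shifted knockout array on average over the members, so leaving it out favours larger differences and is no independent support. No member passed when any other single array was left out. In a single fit of all 12 arrays, and separately with a mean-variance trend and robust moderation, 6 members passed, *Cct2*, *Cct3*, *Cct5*, *Cct8*, *Hspd1* and *Hspe1*.

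In L-IECs the genotypes lay close together. The members' median was -0.05 on the log2 scale, with a range of -0.28 for *Hspd1* to 0.10 for *Cct2*, and adjusted p lay between 0.794 and 0.983. No member, and no cluster of the whole table, passed the adjusted threshold (0%). At an unadjusted p under 0.05, 0 of 10 members were lower or higher, against 3.35% of all clusters lower and 2.97% higher. The groups did not overlap, with the knockout lower, for 1 member, *Cct7*, against 6.24% of all clusters.

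*Hspd1* measured 8.16, 7.83 and 8.02 in Nfat5IEC-KO L-IECs, against 8.34, 8.40 and 8.11 in Nfat5fl/fl L-IECs. The groups overlapped through a high knockout array and a low control array (log2 difference -0.28, SE 0.13, 95% interval -0.57 to 0.01, adjusted p = 0.794). *Hspe1* measured 7.52, 7.71 and 7.58 in Nfat5IEC-KO, against 7.80, 7.64 and 7.69 in Nfat5fl/fl (log2 difference -0.11, SE 0.10, adjusted p = 0.89). Averaged over the pair, L-IEC arrays measured 7.77 to 7.84 in Nfat5IEC-KO and 7.90 to 8.07 in Nfat5fl/fl, with no overlap. This average was not tested.

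*Cct7* measured 7.45, 7.53 and 7.61 in Nfat5IEC-KO L-IECs, against 7.63, 7.63 and 7.61 in Nfat5fl/fl L-IECs. The gap between the groups was smaller than the rounding used here (log2 difference -0.09, SE 0.10, adjusted p = 0.898). *Cct8* measured 8.13, 8.22 and 8.17 in Nfat5IEC-KO, against 8.24, 8.12 and 8.03 in Nfat5fl/fl, with a log2 difference of 0.05 (SE 0.10, adjusted p = 0.96). The other 6 CCT subunits overlapped between genotypes, with differences of -0.05 to 0.10. Over all 8 CCT subunits the lowest bound of a 95% interval was -0.31, that of *Cct7*.

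**Figure D2:**
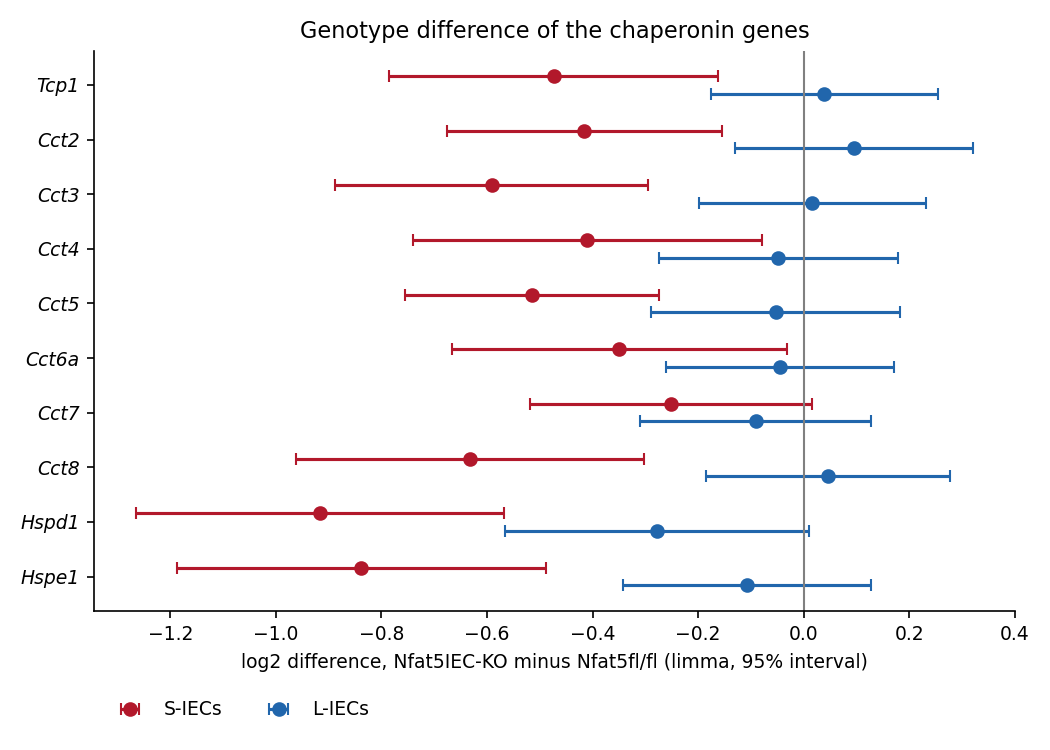
Log2 difference, Nfat5IEC-KO minus Nfat5fl/fl (horizontal axis), of each chaperonin gene in S-IECs and L-IECs. Points are limma estimates and bars their 95% intervals, 3 arrays per group. In S-IECs all intervals but that of *Cct7* lie below 0, and in L-IECs all include 0.

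The difference between the tissues' genotype effects was tested as an interaction over all 12 arrays. It was negative for all 10 members, with a median of -0.51 against 0.01 over all clusters. No member and no cluster passed an adjusted p of 0.05 (0%), and the members' adjusted p ranged between 0.241 and 0.733. At an unadjusted p under 0.05, 7 of 10 members were negative, against 6.3% of all clusters. *Hspe1* had the lowest value, -0.73 (SE 0.19, adjusted p = 0.246), followed by *Cct8* with -0.68 (SE 0.18, adjusted p = 0.248), *Hspd1* with -0.64 (SE 0.21, adjusted p = 0.293) and *Cct3* with -0.61 (SE 0.16, adjusted p = 0.241). *Cct4*, *Cct6a* and *Cct7* did not pass the unadjusted threshold. Without replicate 2 of the Nfat5IEC-KO S-IECs, *Cct8* (adjusted p = 0.0352) and *Hspe1* (0.0355) passed and the median was -0.61. In that fit 207 of all 25341 clusters passed with a negative interaction and 32 with a positive one.

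Between the tissues, every chaperonin gene was lower in S-IECs than in L-IECs of Nfat5IEC-KO mice, and here the adjusted threshold was passed by 10 of 10 members, against 14.7% of all clusters called lower. The groups did not overlap for any member, against 21.8% of all clusters. These S-IEC and L-IEC knockout arrays also enter the genotype comparisons above, so the results are not independent of them. The difference was largest for *Hspe1* (-0.94, SE 0.15, adjusted p = 0.00156), *Hspd1* (-0.81, SE 0.15, adjusted p = 0.00364) and *Tcp1* (-0.77, SE 0.13, adjusted p = 0.00256) and smallest for *Cct7* (-0.37, SE 0.11, adjusted p = 0.0309). The median was -0.63, where that of all clusters was 0.02.

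In Nfat5fl/fl mice the same comparison gave a median of -0.17, and 0 of 10 members passed the adjusted threshold, against 10.4% of all clusters called lower. At an unadjusted p under 0.05, *Tcp1* (-0.26, SE 0.10, adjusted p = 0.14) and *Cct5* (-0.25, SE 0.10, adjusted p = 0.139) were lower in S-IECs, 2 of 10 members against 16.3% of all clusters. S-IEC and L-IEC arrays did not overlap for 5 members, *Tcp1*, *Cct4*, *Cct5*, *Cct7* and *Hspe1*, against 18.9% of all clusters. *Cct3* (-0.01, SE 0.11) and *Cct8* (0.04, SE 0.11) were nearly level between the control tissues. The passing of the threshold in one genotype and not in the other is not itself a test, and the interaction above is the test of that difference.

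Leave-one-out fits of the knockout tissue comparison kept 7 to 9 members past the adjusted threshold. *Cct4*, *Cct6a* and *Cct7* were the ones lost: each was lost in the fits without replicate 1 of the Nfat5IEC-KO S-IECs (7 left), without replicate 3 of the Nfat5IEC-KO S-IECs (7 left) and without any one of the Nfat5IEC-KO L-IEC replicates (7 left each), and *Cct7* alone without replicate 2 of the Nfat5IEC-KO S-IECs (9 left).

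**Figure D3:**
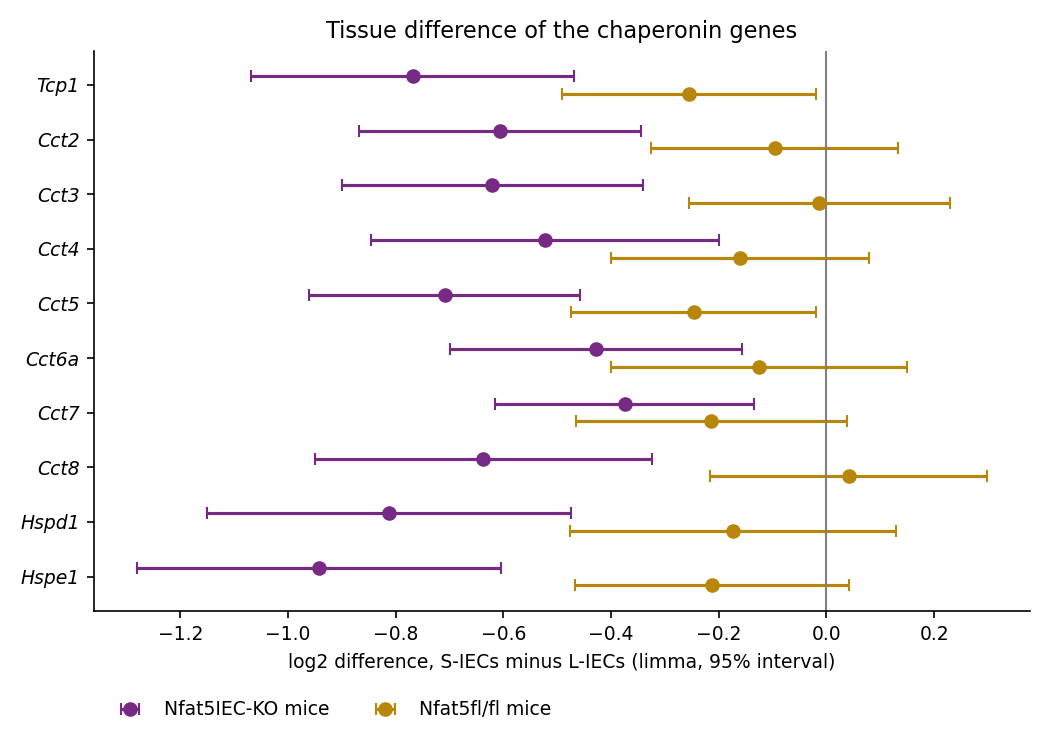
Log2 difference, S-IECs minus L-IECs (horizontal axis), of each chaperonin gene in Nfat5IEC-KO and in Nfat5fl/fl mice. Points are limma estimates and bars their 95% intervals, 3 arrays per group. All 10 knockout intervals lie below 0, and among control intervals those of *Tcp1* and *Cct5* do.

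Ordered by mean level, Nfat5IEC-KO S-IECs came last for all 10 genes. For 9 of them the neighbouring group in that order did not overlap with it, and for *Cct6a* it did. The 3 other groups stood close together: in 7 of the 10 genes each of them overlapped with its neighbour, and the exceptions were *Tcp1* and *Cct5*, where Nfat5fl/fl S-IECs lay below both L-IEC groups, and *Cct7*, where the L-IEC genotypes were apart.

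The knockout arrays did not carry the difference evenly. Averaged over the 8 CCT subunits, replicates 1, 2 and 3 of the Nfat5IEC-KO S-IECs deviated from the Nfat5fl/fl mean by -0.578, -0.295 and -0.492, whereas Nfat5fl/fl arrays deviated by -0.11 to 0.06. For the mitochondrial pair the 3 deviations were -0.98, -0.60 and -1.05. Replicate 2 was the least shifted in both.

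The 5 genes whose values followed the CCT mean most closely over the 12 arrays, each gene first centred on its tissue's Nfat5fl/fl mean, were *Atp2a3*, an endoplasmic reticulum calcium pump (r = 0.992), *Ndc1*, a nuclear pore membrane protein (r = 0.99), *Nedd4*, a ubiquitin ligase (r = 0.99), *Eprs*, a transfer RNA synthetase (r = 0.989), and *Rpn1*, a subunit of the oligosaccharyltransferase (r = 0.985). They were chosen for this likeness among 23509 clusters, and the 12 points share 3 low arrays, those of the Nfat5IEC-KO S-IECs. In S-IECs they differed by -0.54 for *Rpn1* to -1.0 for *Ndc1*, none past the adjusted threshold, and in L-IECs by -0.02 for *Eprs* to 0.04 for *Ndc1*.

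Of the partners that deliver substrates to CCT, 1 passed the unadjusted threshold. Prefoldin, the jawed chaperone that hands nascent actin and tubulin to CCT, had 5 of its 6 subunit genes measured. That gene was *Pfdn2*, lower in S-IECs (-0.41, SE 0.12, adjusted p = 0.186), and the list median was -0.11. None passed that threshold in L-IECs. Of the 4 phosducin-like and thioredoxin-like partners of CCT (*Pdcl*, *Pdcl2*, *Pdcl3*, *Txndc9*), none passed it in either tissue, and *Pdcl3* differed by 0.20 (SE 0.14) in S-IECs. To be read beside these and the following list counts, all clusters passed the unadjusted threshold at a rate of 8.23% (knockout lower) and 5.81% (knockout higher) in S-IECs, with 3.35% and 2.97% for the same directions in L-IECs. In the list counts below, lower and higher mean past that unadjusted threshold, and no listed gene passed the adjusted one in either tissue.

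Of the 4 CCT-like relatives, which include the chaperonin-like proteins of Bardet-Biedl syndrome, *Mkks* passed the unadjusted threshold in S-IECs and was lower (-0.40, SE 0.16, adjusted p = 0.304). *Cct6b*, the testis form of the zeta subunit, was dim, with a mean of 3.75 in Nfat5IEC-KO and 3.47 in Nfat5fl/fl S-IECs, and differed by 0.28 (SE 0.14, adjusted p = 0.407).

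Among the substrates, 12 of 13 listed actin and tubulin genes were measured, with a median of -0.06 in S-IECs. Of these 3 were lower past the unadjusted threshold, *Tuba1b* (-0.79, SE 0.19, adjusted p = 0.138), *Tubb5* (-0.69, SE 0.21, adjusted p = 0.201) and *Tuba1c* (-0.40, SE 0.16, adjusted p = 0.315), and 1 was higher, *Tubb2b* (0.40, SE 0.15, adjusted p = 0.271). Tubulin genes are close in sequence, and probes may not separate them fully. The main cytoplasmic actins differed by 0.16 (*Actb*, SE 0.11) and 0.02 (*Actg1*, SE 0.12), values picked out here because actin is the textbook substrate. In L-IECs *Tubb2a* was lower (-0.37, SE 0.15, adjusted p = 0.776) and none was higher.

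Of 5 measured WD40 and other CCT substrates, *Plk1*, a mitotic kinase, was lower in S-IECs (-0.74, SE 0.18, adjusted p = 0.138), and *Cdc20* differed by -0.28 (SE 0.14, adjusted p = 0.413). The 4 measured tubulin folding cofactors, which act on tubulin after CCT releases it, ranged between -0.15 for *Tbcd* and -0.004 for *Tbca*, and none passed the unadjusted threshold in either tissue.

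In the mitochondrion, genes around HSP60 were examined by step. Of the 7 genes of the mitochondrial HSP70 system, which draws proteins into the matrix and passes them to HSP60, 4 passed the unadjusted threshold in S-IECs, all lower, with a list median of -0.25. They were *Hspa9*, the matrix HSP70 (-0.64, SE 0.15, adjusted p = 0.137), its co-chaperone *Dnaja3* (-0.52, SE 0.14, adjusted p = 0.164), its nucleotide exchange factor *Grpel1* (-0.29, SE 0.12, adjusted p = 0.329) and the matrix HSP90 *Trap1* (-0.25, SE 0.10, adjusted p = 0.329). None passed in L-IECs, where the median was 0.05.

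Of 9 measured genes of mitochondrial protein import, 3 were lower in S-IECs and none higher, with a median of -0.23: *Tomm40*, the outer membrane channel (-0.71, SE 0.18, adjusted p = 0.147), *Timm23*, the inner membrane channel (-0.41, SE 0.12, adjusted p = 0.179), and *Timm44*, which tethers HSP70 to it (-0.32, SE 0.12, adjusted p = 0.297). The 8 mitochondrial proteases and unfoldases had a median of -0.001 in S-IECs, and *Lonp1*, the matrix protease, was the one lower (-0.35, SE 0.12, adjusted p = 0.25). In L-IECs *Htra2* was higher (0.28, SE 0.12, adjusted p = 0.778). Within these mitochondrial lists, the genes lower at the unadjusted threshold lay in import and in matrix folding, with *Lonp1* besides. Genes of other mitochondrial functions were not listed, so their place among the lower genes is not described here.

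A list of heat shock genes, which held *Hspa1a*, *Hspa1b*, *Hspa8*, *Hsph1*, *Dnajb1* and *Hsp90aa1*, the small heat shock protein gene *Hspb1* and the heat shock factor gene *Hsf2*, had lower members in both tissues. Of these 8 measured genes, 5 were lower in S-IECs (median -0.71) and 4 in L-IECs (median -0.34), and none was higher. *Hsph1*, the HSP110 exchange factor, differed by -2.10 (SE 0.30, adjusted p = 0.112) in S-IECs and by -1.48 (SE 0.21, adjusted p = 0.502) in L-IECs. *Hspa8*, the constitutive HSP70, differed by -0.66 (SE 0.13, adjusted p = 0.13) in S-IECs and by -0.38 (SE 0.10, adjusted p = 0.743) in L-IECs. The inducible *Hspa1b* differed by -1.89 in S-IECs and -1.54 in L-IECs, and its near-identical copy *Hspa1a*, which probes may not separate from it, by -0.95 and -0.80. *Hsp90aa1* was lower in S-IECs (-0.76, SE 0.11, adjusted p = 0.112). *Dnajb1* (-0.06 in S-IECs and -0.04 in L-IECs), *Hspb1* (-0.10 and -0.29) and *Hsf2* (-0.08 and 0.32) passed in neither tissue.

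By array, the mean of these heat shock genes deviated by -0.88, -0.81 and -0.78 in replicates 1, 2 and 3 of the Nfat5IEC-KO S-IECs, so replicate 2 did not stand apart. In Nfat5IEC-KO L-IECs they deviated by -0.56, -0.62 and -0.49, where the 8 CCT subunits deviated by -0.03 to 0.03 and the mitochondrial pair by -0.15 to -0.23.

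Markers of crypt cell types were lower in the same S-IEC arrays as the chaperonins. Of 17 measured genes of cycling cells, 14 passed the unadjusted threshold, all lower (median -0.56), and their mean level was 5.90 to 6.49 in Nfat5IEC-KO and 6.51 to 6.87 in Nfat5fl/fl S-IECs. *Mki67*, a marker of dividing cells, differed by -0.87 (SE 0.19, adjusted p = 0.137) and *Smc2*, a condensin subunit, by -0.81 (SE 0.16, adjusted p = 0.13). The cycling list deviated by -0.82, -0.23 and -0.77 in replicates 1, 2 and 3, so replicate 2 was the least shifted here too.

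Of 12 crypt stem cell markers, 7 were lower and none higher (median -0.58), with mean levels of 6.81 to 7.26 in Nfat5IEC-KO and 7.29 to 7.57 in Nfat5fl/fl S-IECs. *Myc* differed by -0.93 (SE 0.13, adjusted p = 0.112) and *Lgr5*, the defining stem cell receptor, by -0.88 (SE 0.23, adjusted p = 0.152). Of 9 Paneth cell markers, 8 were lower and none higher (median -1.13), with mean levels of 7.67 to 8.70 in Nfat5IEC-KO and 8.87 to 9.27 in Nfat5fl/fl S-IECs. *Mmp7*, a Paneth cell protease, differed by -1.34 (SE 0.27, adjusted p = 0.13). Between the tissues of Nfat5fl/fl mice, 7 of the 9 Paneth markers were higher in S-IECs than in L-IECs. Of the others, *Nupr1* was lower in S-IECs (-1.82, limma adjusted p = 1.75e-05) and *Ang4* was level (0.05, limma adjusted p = 0.964). *Ang4* is among the 8 markers lower in Nfat5IEC-KO, and *Nupr1* is not.

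Of 9 goblet cell markers, 4 were lower and none higher (median -0.41), with mean levels of 9.40 to 10.1 in Nfat5IEC-KO and 10 to 10.3 in Nfat5fl/fl S-IECs. Absorptive enterocyte markers ran the other way: of 14, 9 were higher and none lower (median 0.30), with *Slc2a5*, a fructose transporter, at 0.84 (SE 0.13, adjusted p = 0.112). Colonocyte markers were split: of 6 measured, 3 were lower, *Car1* (-3.07, SE 1.14, adjusted p = 0.278, groups overlapping), *Car4* (-0.37, SE 0.12, adjusted p = 0.222) and *Slc26a3* (-0.36, SE 0.12, adjusted p = 0.222), and 1 was higher, *Ceacam20* (0.40, SE 0.12, adjusted p = 0.186). As given above, *Ceacam20* was higher in S-IECs than in L-IECs of Nfat5fl/fl mice, unlike the 3 lower genes. The mean of all 6 measured colonocyte markers deviated by -0.576, -0.62 and -0.485 in replicates 1, 2 and 3 of the Nfat5IEC-KO S-IECs. In those of Nfat5fl/fl it deviated by -0.62, 0.367 and 0.253, so a control array was as low as the knockout arrays on this list. *Car1* had by far the largest difference and SE of the list and weighs most in its mean. None of these marker genes passed an adjusted p of 0.05. The part of the cell type lists in the chaperonin differences was not tested.

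In L-IECs 0 of 17 genes of cycling cells were lower and 1, *Bub1*, was higher (0.32, SE 0.12, adjusted p = 0.769), with mean levels of 6.62 to 6.64 in Nfat5IEC-KO and 6.52 to 6.58 in Nfat5fl/fl. The stem cell list had 0 of 12 lower and 1, *Lgr5*, higher (0.30, SE 0.12, adjusted p = 0.773). The Paneth list had 0 of 9 lower or higher, with mean levels of 6.01 to 6.49 in Nfat5IEC-KO and 5.59 to 6.22 in Nfat5fl/fl. The study's text states that the colon lacks Paneth cells, so this list does not measure them in L-IECs. Among goblet cell markers 1 of 9 was lower, *Spdef* (-0.44, SE 0.12, adjusted p = 0.713), among enterocyte markers 2 of 14, *Treh* (-0.70, SE 0.15, adjusted p = 0.668) and *Alpi* (-0.43, SE 0.15, adjusted p = 0.768), and among colonocyte markers 1 of 6, *Slc26a3* (-0.26, SE 0.10, adjusted p = 0.769), and none of these lists held a higher gene.

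**Figure D4:**
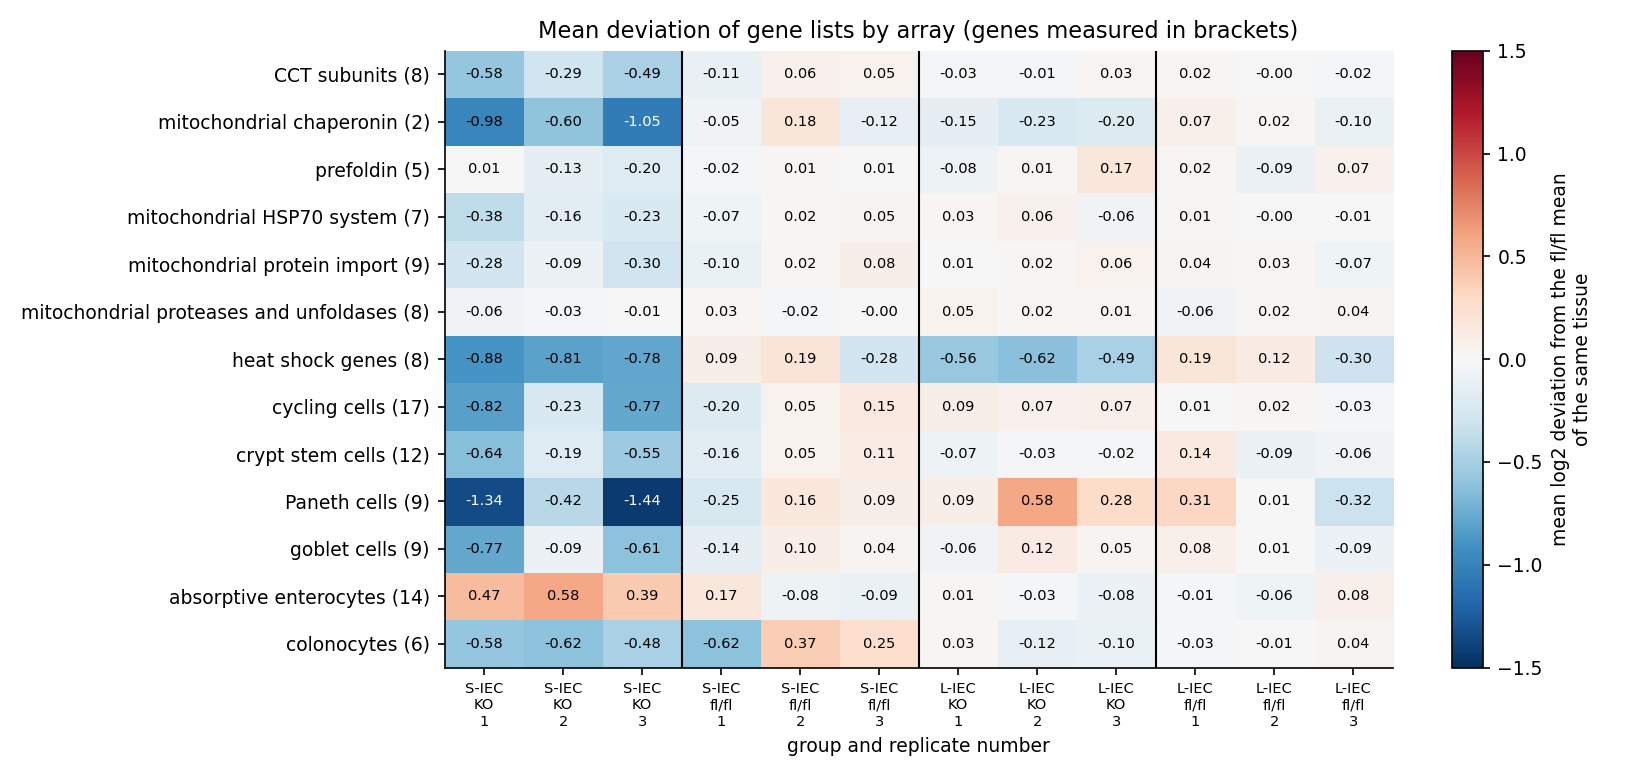
Mean log2 deviation from the Nfat5fl/fl mean of the same tissue (colour and printed value), for gene lists (rows, number of genes measured in brackets) on the 12 arrays (columns, by group and replicate). The CCT, mitochondrial chaperonin, cycling, crypt stem and Paneth rows are low in the 3 Nfat5IEC-KO S-IEC arrays with replicate 2 the least shifted, and the heat shock row is low in both Nfat5IEC-KO groups.

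Markers of cells from outside the epithelium were also measured. Stromal and endothelial markers averaged 4.58 to 4.72 in Nfat5IEC-KO and 4.54 to 4.72 in Nfat5fl/fl S-IECs, near the array medians, and 0 of 8 were lower or higher between the S-IEC genotypes. For T cells and intraepithelial lymphocytes, 1 of 7 was lower, *Gzmb* (-0.48, SE 0.20, adjusted p = 0.329), with mean levels of 5.19 to 5.69 in Nfat5IEC-KO and 5.11 to 5.75 in Nfat5fl/fl S-IECs. B cell and myeloid lists had none lower or higher in S-IECs, nor had the tuft cell list, and the enteroendocrine list had 1 lower, *Gcg*, and 1 higher, *Nts*. In L-IECs, *Gzma* (-0.35), *Jchain* (-0.41) and *Col1a1* (-0.28) were lower and *Cd79a* (0.53), *Cd14* (0.40) and *Col3a1* (0.41) higher, with adjusted p between 0.744 and 0.778, and the tuft and enteroendocrine lists had none lower or higher.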

How the data were processed

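Total RNA was labelled and hybridized to 12 arrays. Per the labels, the authors processed the scans with the Transcriptome Analysis Console (mm10). Neither version nor normalization is given in the sources used here. The deposited table holds log2 values for 41345 clusters: 23521 with 1 symbol, 1820 with several and 16004 with none. Clusters with a symbol (25341) were fitted with limma 3.58.1 in R 4.3.3 (lmFit, eBayes) within each tissue or genotype, with Benjamini-Hochberg adjustment over all of them. The interaction used all 12 arrays. The script was tested on simulated data. Named genes are all 10 members, and of each list up to 4 with the smallest p in S-IECs and those with an unadjusted p under 0.05 in L-IECs, plus the 5 clusters most like the CCT mean. *Actb*, *Actg1*, *Dnajb1*, *Hspb1*, *Hsf2*, *Mep1a*, *Ang4* and *Nupr1* were named after their values were seen. Members and lists were chosen with earlier results of these data known. Promoters came from RefSeq (GRCm38.p6), and Entrez identifiers matched 10 of 10 members. Alternatives were another fit, moderation, array weights, quantile normalization, centring, filters, the methods' t-test, the mean over clusters, a replicate block and leaving out each array. No 2 arrays held identical values.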

Additional observations from a re-analysis of the deposited data

How the results depend on the processing

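All 10 members stayed lower in Nfat5IEC-KO S-IECs under the 16 alternatives run. Members past an adjusted p of 0.05 there numbered 6 with all 12 arrays in one fit (444 clusters lower and 127 higher in all), 6 with trend and robust moderation (314 and 166), and 0 to 3 when 1 array was left out. The 3 came without replicate 2 of the Nfat5IEC-KO S-IECs (203 and 23). In L-IECs, members lower at an unadjusted p under 0.05 numbered 1 with trend and robust moderation, 1 with the filter on dim clusters and 0 to 1 with 1 array left out. There *Cct3* ranged between -0.0029 and 0.0453 and *Cct8* between -0.0045 and 0.102 with 1 array left out, so their signs turned. For S-IECs minus L-IECs of Nfat5fl/fl mice, 2 members passed the adjusted threshold with trend and robust moderation (3174 of 25341 clusters lower and 2125 higher in all). Members lower at the unadjusted one numbered 4 with that moderation, 0 after quantile normalization, 0 with the replicate block and 0 to 2 with 1 array left out. In the main fit 16.3% of all clusters were lower at the unadjusted threshold. *Cct3* was 0.012 after quantile normalization and *Cct8* -0.0067 after median centring, and with 1 array left out they ranged between -0.0768 and 0.0367 and between -0.0242 and 0.0966. In Nfat5IEC-KO mice 7 to 10 members passed under every alternative. The interaction passed for 0 to 2 members with 1 array left out, and its median lay between -0.61 and -0.47. The 2 came without replicate 2 of the Nfat5IEC-KO S-IECs (207 clusters negative and 32 positive in all). The cause of these changes was not tested.

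Same-numbered arrays did not deviate together (r -0.04 to 0.10), so the numbers were not used to pair samples. With the replicate block, 0 members passed in S-IECs, 0 in L-IECs and 9 in the knockout tissue comparison, and the S-IEC median was -0.49. With 3 arrays per group the number of arrays limits the precision.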
